A study of Homo sapiens with 4 samples.

Results

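Metallothioneins are small, cysteine-rich proteins, and MTF1 is the zinc-sensing transcription factor that switches their genes on. The 9 genes described here are MT2A, MT1A, MT1E, MT1F, MT1G, MT1L, MT1M, MT1X and MTF1, chosen by name as a gene family and its regulator. They were found by symbol in GENCODE 29 among the 58226 gene IDs of the count tables. Counts of RNA-seq fragments per gene were available for 4 libraries of U87MG, an established human glioblastoma line. Parental U87MG cells were transfected with a non-targeting siRNA (si-NC) or with an siRNA against LINC00461 (si-LINC00461), a long non-coding RNA. Temozolomide-resistant R-U87MG cells, a derivative line kept in the drug, were transfected with si-NC or with an siRNA against the deacetylase HDAC6 (si-HDAC6). Each condition was 1 library of transfected cells and no value has a replicate check, so that no condition could be tested, and all intervals below cover counting error only. PCR copies of fragments are not independent molecules, which these intervals do not include.

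Metallothionein proteins bind zinc and copper, and also cadmium and other toxic metals, through clusters of cysteine thiolates. When free zinc rises, MTF1 enters the nucleus and binds metal response elements, short motifs in the promoters of the metallothionein genes and of the zinc exporter SLC30A1. Metallothioneins are also induced by glucocorticoids and oxidants, and they are expressed in astrocytes and in gliomas.

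Of the 9 genes, 8 lie on chromosome 16 (GRCh38) in a cluster of 16 annotated metallothionein loci that spans 119 kb, chr16:56565049-56684196. Their order along the plus strand is MT2A (chr16:56608199-56609497), MT1L (chr16:56617476-56618818), MT1E (chr16:56625475-56627112), MT1M (chr16:56632233-56633986), MT1A (chr16:56638666-56640087), MT1F (chr16:56657694-56660698), MT1G (chr16:56666731-56668065) and MT1X (chr16:56682424-56684196). MT1G is read from the minus strand and the other 7 from the plus strand. MT1L is annotated as a transcribed unprocessed pseudogene, and the rest are protein coding. MTF1 lies on the minus strand of chromosome 1 (chr1:37809567-37859620).

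Each of the 7 protein-coding metallothionein genes has 3 coding exons with 183 coding bases, that is 61 codons, of which 20 (32.8%) are the cysteine codons TGC or TGT. Coding sequences (GENCODE 29, GRCh38) of the most abundant gene, MT2A, of MT1X and of MT1G are shown because they show how alike the genes are that had to be told apart by the counting. Capitals in MT1X and MT1G mark the bases that differ from MT2A.
MT2A: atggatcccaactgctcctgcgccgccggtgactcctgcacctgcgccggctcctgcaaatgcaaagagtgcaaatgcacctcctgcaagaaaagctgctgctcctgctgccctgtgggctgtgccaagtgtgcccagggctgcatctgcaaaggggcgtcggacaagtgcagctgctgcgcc
MT1X: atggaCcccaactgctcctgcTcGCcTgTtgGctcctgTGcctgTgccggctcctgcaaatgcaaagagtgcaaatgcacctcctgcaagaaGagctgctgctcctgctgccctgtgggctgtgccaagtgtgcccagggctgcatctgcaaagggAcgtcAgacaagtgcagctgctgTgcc
MT1G: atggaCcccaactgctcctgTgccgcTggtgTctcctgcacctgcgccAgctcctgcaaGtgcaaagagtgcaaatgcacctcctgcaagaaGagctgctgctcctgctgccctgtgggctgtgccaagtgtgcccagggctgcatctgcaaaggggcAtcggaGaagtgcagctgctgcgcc
The identity to MT2A over the 183 bases was 95.1% for MT1G, 92.3% for MT1A, MT1E and MT1X, 91.3% for MT1F and 89.6% for MT1M. Over whole exons, 18.3% of the stretches of 50 bases in MT1X and 16.5% of those in MT1G also occur in another annotated gene. The share was 9.87% for MT1M, 7.10% for MT1E, 5.76% for MT1A, 4.42% for MT1L, 3.02% for MT2A, 1.22% for MT1F and 0.640% for MTF1. How the counting divided fragments from such stretches is not given in the sources used here. MT1G and MT1X had the largest shares of the family by this measure. The shares are over all annotated stretches of a gene, 347 in MT1A and 1971 in MT1F. They are thus not shares of fragments, and do not rank how certain the levels are.

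RefSeq promoter sequences (GRCh38.p14, 250 bases before to 50 after the start) were at hand for 3 of the 9 genes, MT2A, MT1X and MTF1. They are shown because MTF1 acts through the metal response element, whose core was searched as TGCACNC and TGCGCNC on both strands. Capitals mark the matches. The MT2A promoter is chr16:56608334-56608633 and the MT1X promoter chr16:56682220-56682519, both on the plus strand.
MT2A promoter: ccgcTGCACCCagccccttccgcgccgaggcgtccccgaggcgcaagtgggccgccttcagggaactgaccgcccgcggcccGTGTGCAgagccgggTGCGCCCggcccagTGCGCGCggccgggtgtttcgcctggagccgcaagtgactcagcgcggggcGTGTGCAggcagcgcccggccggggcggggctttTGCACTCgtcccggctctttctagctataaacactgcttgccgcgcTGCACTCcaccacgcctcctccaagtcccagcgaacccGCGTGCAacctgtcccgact
MT1X promoter: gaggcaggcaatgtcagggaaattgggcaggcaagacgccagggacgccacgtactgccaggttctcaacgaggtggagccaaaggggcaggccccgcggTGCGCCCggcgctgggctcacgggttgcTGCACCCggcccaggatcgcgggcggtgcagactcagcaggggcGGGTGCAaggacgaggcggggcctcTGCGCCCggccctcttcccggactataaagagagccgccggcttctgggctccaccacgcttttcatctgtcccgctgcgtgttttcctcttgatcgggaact
The window of MT2A holds 8 matches, whose first bases lie between positions −246 and 30 with the start as position 0, and that of MT1X holds 4, between positions −150 and −53. Of 35116 promoters of the same length, 29.6% hold at least 1 match, 0.339% hold at least 4 and 0.0171% hold at least 8. Both windows also hold TATAAA, which 7.33% of all promoters do, at position −29 in MT2A and −30 in MT1X. In the MTF1 window, chr1:37859543-37859842 on the minus strand, these letters are not found. The matches describe the letters of the windows and are not measured binding sites.

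The libraries held 12596072 to 20027865 fragments on genes, and 19737 to 21078 genes had a count. The targeted genes were lower in their own libraries, HDAC6 with 67 counts after si-HDAC6 against 296 (log2 −1.74, 95% interval −2.16 to −1.36) and LINC00461 with 73 after si-LINC00461 against 363 (−2.12, −2.51 to −1.76). Of the 7 glioma and mesenchymal markers, VIM (3170 to 6940 CPM), CD44 (1604 to 1770 CPM) and NES were abundant, whereas SOX2, S100B and GFAP had 0 to 13 counts, and OLIG2 was at 5.53 and 9.13 CPM in the R-U87MG libraries and at 0.749 and 1.01 CPM in the U87MG libraries. Of the 4 markers of other cell types, PTPRC and RBFOX3 had 0 to 3 counts and EPCAM 20 to 28. PECAM1, an endothelial adhesion protein, had 27, 16 and 52 counts in R-U87MG si-NC, R-U87MG si-HDAC6 and U87MG si-NC, and 433 in si-LINC00461.

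Levels are given as CPM, the counts of a gene scaled to a common library total, and comparisons between genes as CPM per kb of exon. The dominant metallothionein in all 4 libraries was MT2A, a broadly expressed isoform. It had 837 CPM (13923 counts) in R-U87MG si-NC, 863 CPM (10872) in R-U87MG si-HDAC6, 679 CPM (13594) in U87MG si-NC and 972 CPM (17275) in U87MG si-LINC00461. Per kb of exon it ranked 29, 28, 38 and 27 among the 19656 to 20999 genes with a count and a length in these libraries. In bulk libraries, fewer cells with a transcript and less of it per cell cannot be told apart.

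MT1E and MT1X, both MT1 isoforms expressed in many tissues, were the next most abundant metallothioneins. MT1E was at 100.003 CPM (1664 counts) in R-U87MG si-NC, 79.1 (996) in si-HDAC6, 94.9 (1901) in U87MG si-NC and 166 (2954) in si-LINC00461. MT1X was at 65.2 CPM (1085 counts), 54.1 (682), 85.1 (1704) and 200.1 (3558) in the same order. The si-LINC00461 library was the highest of the 4 for both genes, and the si-HDAC6 library the lowest.

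MT1F, MT1M and MT1G, further MT1 isoforms, were low in R-U87MG. MT1F counts were 12 (R-U87MG si-NC) and 1 (si-HDAC6) in the resistant line, against 599 (U87MG si-NC) and 1290 (si-LINC00461) in the parental line, that is 0.721, 0.0794, 29.9 and 72.6 CPM. MT1M had 10, 4, 52 and 113 counts, or 0.601, 0.318, 2.60 and 6.36 CPM. For MT1G the counts were 0, 1, 8 and 189, and the last of these was 10.6 CPM. All 3 genes were highest in si-LINC00461. MT1F and MT1M were also higher in U87MG si-NC than in each R-U87MG library, with intervals that do not overlap, whereas for MT1G the interval of U87MG si-NC (0.172 to 0.787 CPM) overlaps those of R-U87MG si-NC (0 to 0.222 CPM) and si-HDAC6 (0.00201 to 0.442 CPM). MT1L, the transcribed pseudogene, had 134, 116, 126 and 148 counts, or 8.05, 9.21, 6.29 and 8.33 CPM, a narrow range in which the extreme libraries differed by little more than their counting intervals (7.61 to 11.0 CPM in si-HDAC6 and 5.24 to 7.49 CPM in U87MG si-NC).

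MT1A was listed at 0 in all 4 libraries, which allows up to 0.150 to 0.238 CPM, the value of 3 counts. A listed 0 need not mean absence. The heat shock genes HSPA1A and HSPA1B and the zinc importer SLC39A7 were also listed at 0 in every library. Why these genes or MT1A were listed at 0 was not tested, and 5.76% of the stretches of 50 bases in MT1A occur in another annotated gene. MTF1 was at 82.8 CPM (1377 counts), 69.8 (879), 59.7 (1196) and 89.8 (1596), highest in si-LINC00461 and lowest in U87MG si-NC.

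**Figure D1:**
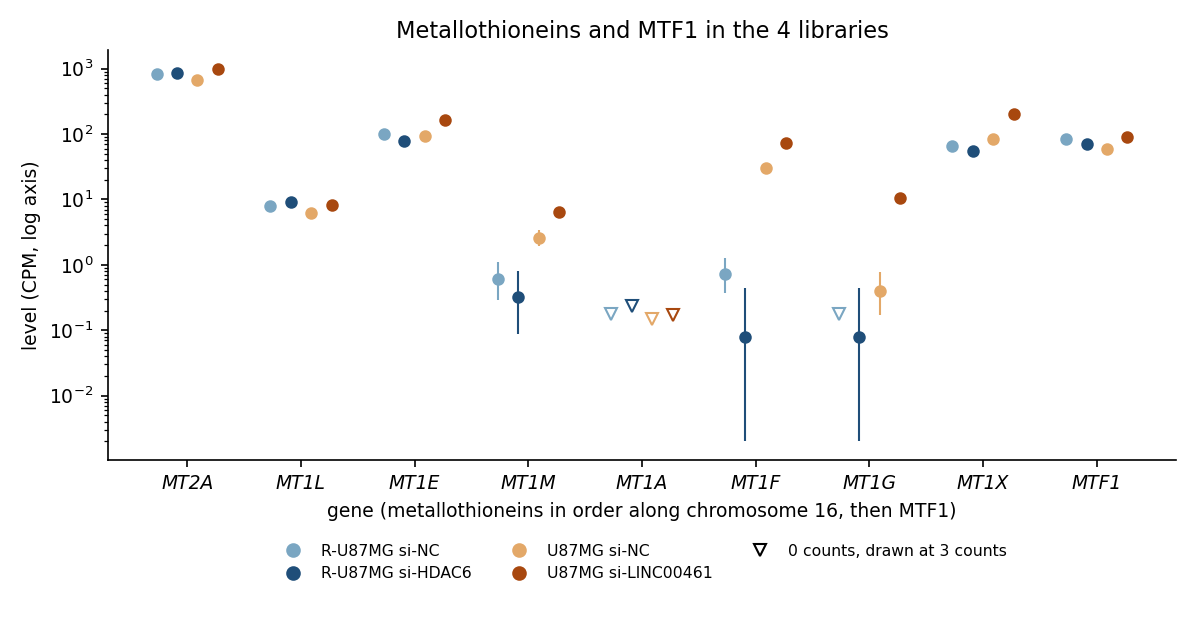
Level of each gene (CPM, log axis) in the 4 libraries, with points for the libraries and bars for 95% exact Poisson intervals of counting error; open triangles mark 0 counts, drawn at the value of 3 counts. MT2A was at 679 to 972 CPM in every library, whereas MT1F ran from 0.0794 to 72.6 CPM.

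Ordered by CPM per kb of exon, MT2A stood first in every library (644, 664, 523 and 748, in the order of libraries used above), followed by MT1E (95.1, 75.2, 90.2 and 158) and MT1X (36.8, 30.5, 48.0 and 113). The order below them differed between libraries, also within the parental line. In R-U87MG si-NC the next were MT1L (19.6) and MTF1 (10.3), and MT1M (0.638) and MT1F (0.382) lay far below. In U87MG si-NC, MT1F (15.8 CPM per kb) and MT1L (15.3) were neighbours that did not differ beyond counting error, and MTF1 (7.44), MT1M (2.76) and MT1G (0.533) followed. In si-LINC00461, MT1F (38.4) stood above MT1L (20.3), MT1G (14.2), MTF1 (11.2) and MT1M (6.75). MTF1 has 8024 bases of exon against 1299 in MT2A, and its level per kb was below those of MT2A, MT1E, MT1X and MT1L in every library. Exon lengths were joined over all annotated transcripts. For MT2A and MT1X (1773 bases) they equal the whole gene, introns included, whereas MT1L has 411 bases. Levels per kb and the order of the genes therefore depend on the annotation.

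The 8 metallothioneins summed to 16828 counts (1011 CPM) in R-U87MG si-NC, 12672 (1006 CPM) in si-HDAC6, 17984 (898 CPM) in U87MG si-NC and 25527 (1436 CPM) in si-LINC00461. Between the si-NC libraries the direction of this sum depended on the scaling, as given below. The share of this sum that was not MT2A was 17.3% (95% exact binomial interval 16.7 to 17.8) in R-U87MG si-NC and 14.2% (13.6 to 14.8) in si-HDAC6. It was 24.4% (23.8 to 25.05) in U87MG si-NC and 32.3% (31.8 to 32.9) in si-LINC00461. The 4 intervals do not overlap. Among the genes other than MT2A, MT1X had the widest range in percentage points, from 5.38% of the sum in si-HDAC6 to 13.9% in si-LINC00461, while MT1E ran from 7.86% to 11.6%.

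The comparison of si-HDAC6 with si-NC in R-U87MG asked what changed when HDAC6 was depleted in resistant cells. Log2 ratios are of counts plus 0.5, scaled by TMM, and because of the added 0.5 they understate large differences at low counts. A gene was compared where its CPM averaged at least 1 in the pair of libraries, as it did for 5 of the 9 members. MT2A was at 0.03 (95% interval −0.00 to 0.07), and MT1L was at 0.18 (−0.19 to 0.55). MT1E (−0.35, −0.46 to −0.23), MT1X (−0.28, −0.42 to −0.14) and MTF1 (−0.26, −0.38 to −0.13) were lower in si-HDAC6, within the range of −0.42 to 0.44 that held the central 90% of all genes compared.

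At the fold of 2 used as the threshold, 0 of the 5 members were higher and 0 lower, against 0.694% of 13120 genes higher and 0.747% lower. The 4 metallothioneins among the 5 had a median of −0.12, beside −0.01 over all genes. The members below the CPM minimum had too few counts for a direction, with the exception of MT1F. Its 1 count against 12 gave −2.67 with an interval of −8.61 to −0.44, whereas the interval of MT1M (4 against 10, −0.83, −3.06 to 0.86) included 0. The interval of the summed metallothionein counts included 0 (−0.02, −0.05 to 0.02), and the sum without MT2A was lower (−0.30, −0.38 to −0.21).

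The comparison of si-LINC00461 with si-NC in U87MG asked what changed when the non-coding RNA was depleted in parental cells, and here all 8 compared members were higher in the depleted library. MT1G showed the largest ratio, 8 counts against 189, which was 25.4-fold (log2 4.67, 95% interval 3.74 to 5.98) and place 17 from the top of 13210 genes. MT1M was 2.46-fold higher (1.30, 0.82 to 1.81), MT1F 2.45-fold (1.29, 1.15 to 1.44) and MT1X 2.38-fold (1.25, 1.17 to 1.33). These 3 ratios did not differ beyond their intervals. Smaller ratios were found for MT1E (0.82, 0.74 to 0.91), MTF1 (0.60, 0.49 to 0.71), MT2A (0.53, 0.50 to 0.57) and MT1L (0.42, 0.07 to 0.77).

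Thus 4 of the 8 compared members were at least 2-fold higher and 0 lower, beside 5.42% of all genes higher and 8.17% lower. MT1G, at 0.399 CPM in si-NC, passed the CPM minimum only through the si-LINC00461 library, where it is high, so its count and its place are a description, and the other 3 were above 1 CPM in both libraries. At least 1.5-fold higher were 6 of the 8 members, beside 14.2% of all genes. The 7 metallothioneins, MT1G included, had a median of 1.25, which is a description for the same reason. The median over all genes was −0.00, and their central 90% lay between −1.33 and 1.04. The summed metallothionein counts were 1.62-fold higher (0.69, 0.66 to 0.72), and the sum without MT2A was 2.14-fold higher (1.10, 1.04 to 1.15). In CPM, MT2A nevertheless had the largest difference of the members, 679 against 972. In the same library VIM was lower (126719 counts against 56351) and PECAM1 higher (52 against 433), and the part of such markers in the metallothionein ratios was not tested.

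Loci of the family outside the members were near 0, with the exception of MT3, the brain isoform, also known as growth inhibitory factor. Of these 13 loci, 8 had no count in any library. MT3 had 0 counts in both R-U87MG libraries, 26 in U87MG si-NC and 19 in si-LINC00461 (−0.26, −1.20 to 0.64). MT1XP1, MT1P3 and MT1JP, annotated as pseudogenes, had 0 to 5 counts. MT1H, the neighbour of MT1G, had 8 counts in si-LINC00461 and 0 elsewhere, at least 3.04-fold higher than in U87MG si-NC if the 0 is read as the floor of 3 counts per library and the 8 as exact. Its 95% counting interval starts at 1.94-fold. MT1G and MT1H share stretches of 50 bases, and fragments from these could have been given to either gene.

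The controls of the lines, R-U87MG si-NC and U87MG si-NC, were set side by side to see how the family differed between them. They are the same libraries that serve as controls above. The line cannot be told apart from the temozolomide in which R-U87MG was kept, or from the making and sequencing of its pair of libraries. MT1F was 47.8-fold lower in R-U87MG (12 counts against 599, log2 −5.58, 95% interval −6.60 to −4.82), place 122 from the bottom of 13349 genes. MT1M was 4.99-fold lower (10 against 52, −2.32, −3.52 to −1.38), and MT1G, with 0 against 8, was at least 2.66-fold lower against the same floor, with a counting interval of the log2 ratio that ends at −0.77. MT3, with 0 against 26, was at least 8.64-fold lower by this floor, with an interval that ends at −2.71.

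The abundant members had smaller ratios between the lines. MT1X was at −0.65 (−0.76 to −0.54), MT1L at 0.09 (−0.27 to 0.45) and MTF1 at 0.21 (0.09 to 0.32). MT1E was at −0.19 (−0.28 to −0.09) but at 0.08 when scaled by total counts, and MT2A was at 0.04 (0.00 to 0.07) but at −0.01 with upper-quartile factors, so neither has a direction that holds under each scaling. Scaling by total counts adds 0.26 to every log2 ratio of this comparison. The summed metallothionein counts were at −0.09 (−0.12 to −0.06) with TMM, but their CPM was higher in R-U87MG si-NC (1011 against 898). Their direction thus turned with the scaling. Without MT2A the sum was lower in R-U87MG, at −0.59 (−0.66 to −0.52), and so was its CPM (175 against 219). Of the 7 members compared, 2 were at least 2-fold lower and 0 higher, beside 15.0% of all genes lower and 11.2% higher. With total counts the split over all genes was 1494 genes lower and 2399 higher, and the members' counts were still 2 and 0. Both of these members, MT1F and MT1M, were under 1 CPM in R-U87MG si-NC and passed the CPM minimum only through the U87MG library, where they are higher, so that the count is a description. At least 1.5-fold lower were 3 of the 7, beside 25.1% of all genes. The 6 metallothioneins had a median of −0.42, beside 0.02 over all genes, whose central 90% lay between −2.19 and 1.44. MT1F and MT1M are included in this median, so it too is a description.

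**Figure D2:**
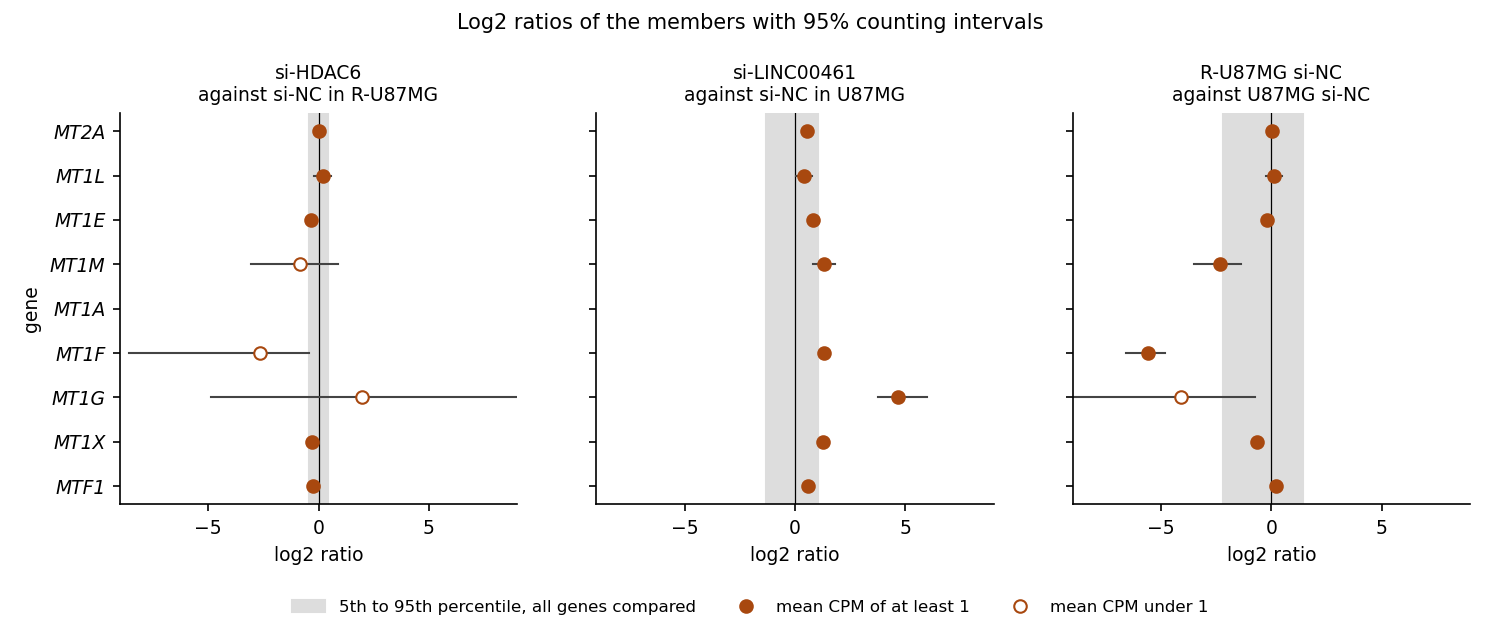
Log2 ratio of each member in the 3 comparisons, with lines for 95% counting intervals (cut at the edges of the axis) and a grey band for the central 90% of all genes compared; open points had a mean CPM under 1 and MT1A had no counts. MT1G, MT1M, MT1F and MT1X lay above the band in si-LINC00461, and MT1F and MT1M below it in R-U87MG, while the sign of MT1E and MT2A in the last panel turned with the scaling.

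Along the cluster, the 4 libraries lay closest to each other at MT2A and MT1L and farthest apart at MT1F and MT1G. From MT1A to MT1B, 4 successive loci (MT1A, MT1DP, MT1CP and MT1B) had no count in any library. Genes beside the cluster were read in the same way. Of the 5 nearest protein-coding genes on each side, 7 were compared in every comparison. In si-LINC00461, 2 of these were at least 2-fold lower, beside 8.17% of all genes. They were HERPUD1 (−1.60, −1.77 to −1.44), which acts in the degradation of misfolded proteins of the endoplasmic reticulum, and NUDT21 (−1.37, −1.48 to −1.26), a factor of mRNA 3′ end processing. The highest was NLRC5, a regulator of MHC class I genes, at 0.39 (0.26 to 0.51), and the median was −0.22. In si-HDAC6 none of the 7 passed 2-fold, with a median of −0.06 and a range from NUDT21 at −0.19 to HERPUD1 at 0.47. Between the lines none passed it either, with a median of −0.08 and a range from NLRC5 at −0.58 to OGFOD1 at 0.94 (1.20 with total counts).

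**Figure D3:**
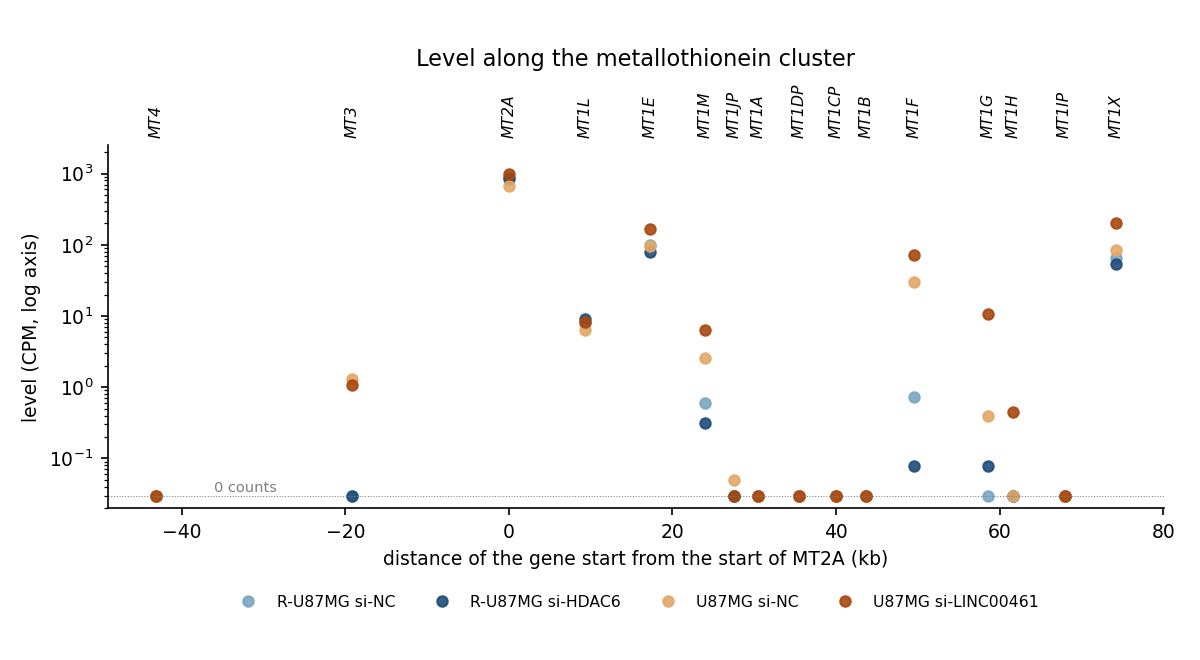
Level (CPM, log axis) of the 16 metallothionein loci of the chromosome 16 cluster against the distance of each gene start from that of MT2A (kb), with points for the 4 libraries and a dotted line for 0 counts. MT2A was within 679 to 972 CPM in all libraries, while MT1F and MT1M were higher in both U87MG libraries than in both R-U87MG libraries.

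Genes that act with the metallothioneins in zinc handling were taken as lists. Over all genes, 5.42% were at least 2-fold higher and 8.17% lower in si-LINC00461, and 0.694% and 0.747% in si-HDAC6. Between the lines the shares were 11.2% and 15.0%. The counts of each list below are to be read beside these shares. Zinc exporters of the SLC30 family, which move zinc out of the cytosol, include SLC30A1, itself a target of MTF1. Of 10 listed, 7 were compared in si-LINC00461, with a median of 0.31, and 1 was at least 2-fold higher and 0 lower. That gene was SLC30A4, a vesicular exporter, with 105 counts against 51 (1.22, 0.73 to 1.74). In si-HDAC6 6 were compared, 0 passed 2-fold, the median was −0.03 and the range ran from SLC30A6 at −0.20 to SLC30A5 at 0.04. Between the lines 2 of 6 were at least 2-fold higher in R-U87MG and 0 lower, with a median of 0.26. They were SLC30A4 with 262 counts against 51 (2.35, 1.93 to 2.83) and SLC30A1 with 2046 against 791 (1.37, 1.26 to 1.49).

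Zinc importers of the SLC39 family bring zinc into the cytosol. Of 14 listed, 10 were compared in each comparison. In si-HDAC6 0 passed 2-fold (median 0.03, from SLC39A6 at −0.23 to SLC39A4 at 0.41), and in si-LINC00461 0 passed it (median 0.17, from SLC39A10 at −0.69 to SLC39A6 at 0.82). Between the lines 2 were at least 2-fold lower in R-U87MG, SLC39A14 (5981 counts against 15298, −1.35, −1.39 to −1.31) and SLC39A13 (1312 against 2893, −1.14, −1.23 to −1.04, but −0.87 with total counts), and 0 higher, with a median of −0.02.

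Other known or proposed targets of MTF1 include SLC30A1, the zinc importer SLC39A10 and genes of other functions. All 8 listed were compared in each comparison, and the list was not split by whether MTF1 raises or lowers a gene. In si-LINC00461 4 of the 8 were above 0 and 4 below. In si-LINC00461 0 of 8 passed 2-fold, with a median of 0.09, and the range ran from PGF, an angiogenic growth factor, at −0.86 (−1.25 to −0.48) to SELENOH, a nuclear selenoprotein, at 0.56 (0.40 to 0.71). SLC30A1 was at 0.42 (0.28 to 0.56) there. In si-HDAC6 0 of 8 passed it, with a median of 0.03 and a range from PGF at −0.48 to NDRG1 at 0.16. Between the lines 1 was at least 2-fold higher in R-U87MG, SLC30A1, and 2 lower, with a median of 0.02. The lower ones were NDRG1, a gene induced by stress and hypoxia, with 2675 counts against 60826 (−4.50, −4.56 to −4.45), and PGF with 26 against 180 (−2.76, −3.44 to −2.19).

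**Figure D4:**
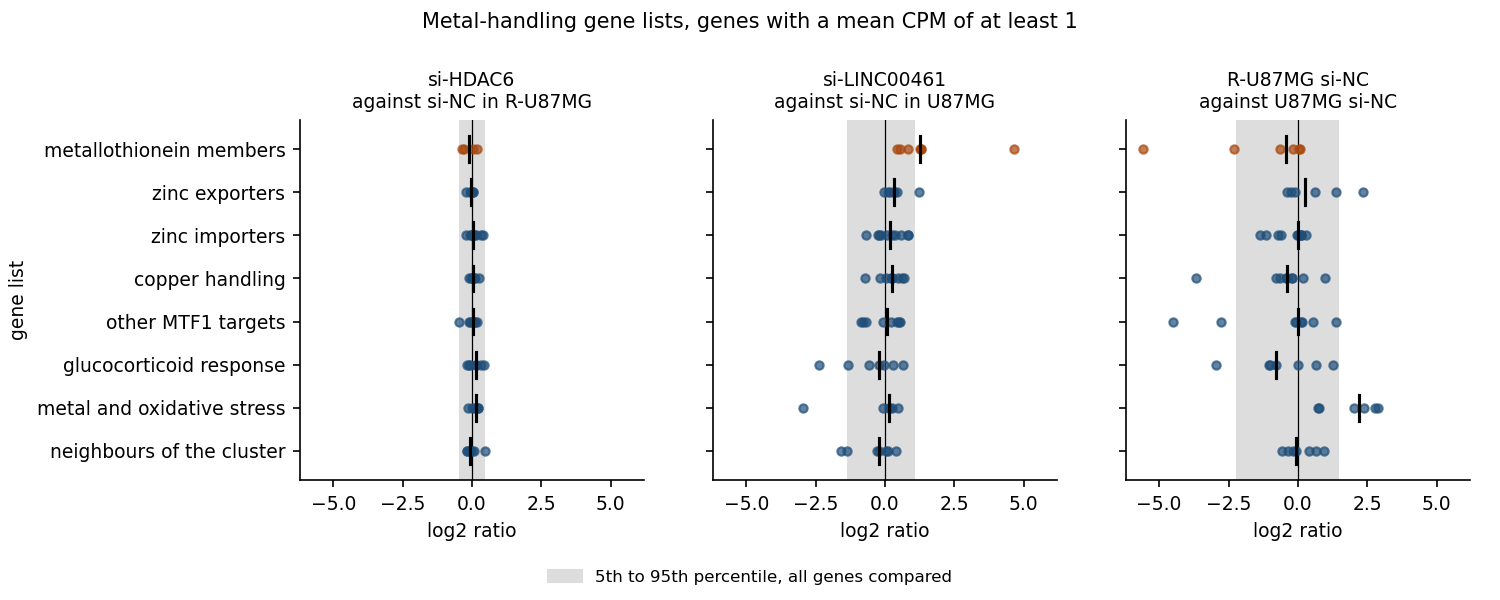
Log2 ratios of the compared genes of each list in the 3 comparisons, with points for genes, black bars for medians and a grey band for the central 90% of all genes compared. The metallothionein median in si-LINC00461, MT1G included, was 1.25, beside 0.31 for zinc exporters. The median was 0.09 for other MTF1 targets, of which 4 were above 0 and 4 below.

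Across the 4 libraries, the pattern of MT2A was compared with that of 10842 genes that had a mean CPM of at least 5, by the Euclidean distance of log2 levels centred on each gene's mean. Among the 5 nearest genes outside the family were WLS (distance 0.00889), CNP (0.0361), C15orf40 (0.0448) and SLC9A8 (0.0480). WLS, a carrier of Wnt proteins in secretion, had 201 CPM in R-U87MG si-NC, 206 in si-HDAC6, 162 in U87MG si-NC and 231 in si-LINC00461. Of the members, MTF1 was at place 404 (0.212) and MT1L at place 486 (0.229) in this order, whereas MT1E was at 4114, MT1X at 8445 and MT1F at 10811. With 4 points a small distance is a description of these libraries.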

How the data were processed

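RNA-seq of 4 libraries, 1 per condition, was used. Trizol RNA was made into strand-specific Illumina libraries. The submitters' processing notes name bcl2fastq, Trimmomatic 0.36, HISAT2 and GRCh38.p13, and the counting program and its strand setting are not given in the sources used here. The deposited values were read as estimated counts per Ensembl gene, multiplied by a constant for each library. These constants were inferred from the values themselves. They were 0.869, 1.15, 0.939 and 1.06 in the order R-U87MG si-NC, R-U87MG si-HDAC6, U87MG si-NC and U87MG si-LINC00461. Division by the constant of each library gave whole numbers, within 0.02, for 93.4% to 94.1% of the values above 0. The results were rounded to whole counts. Totals were then 16639551, 12596072, 20027865 and 17777044, and 3 counts equal 0.150 to 0.238 CPM.

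Symbols, positions and exon lengths came from GENCODE 29, which holds 57888 of the 58226 IDs. The 2 libraries of each comparison were scaled with TMM (edgeR 4.0.16, R 4.3.3). Log2 ratios used a pseudocount of 0.5, and their 95% intervals were derived by the Clopper-Pearson method (exact binomial) from how a gene's counts divided between the libraries. Other scalings tried were upper-quartile factors, size factors from DESeq2 1.42.0, total counts and the scaling of the deposited values. Also tried were unrounded counts, pseudocounts of 0.1 and 5 and thinning to the smallest library. A 1.5-fold threshold, no CPM minimum and the length of the longest transcript were the remaining settings. The calculation was tested on simulated data. Python 3.11.15, numpy 2.4.6, pandas 2.3.3, scipy 1.17.1 and matplotlib 3.10.9 were used.

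The members and the lists (other metallothionein loci, zinc exporters, zinc importers, copper handling, other MTF1 targets, glucocorticoid response, metal and oxidative stress, neighbours of the cluster, and markers) were chosen with earlier results of these data known. All members are named. From each list, up to 4 genes at least 2-fold higher or lower are named, those with the largest ratios, or the highest and lowest where none were, and other values named beside them were chosen after they were seen. Protein sequences and the promoters of the other 6 members were not used here, and 1 of the 5 genes nearest to MT2A in pattern is not reported here.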

Additional observations from a re-analysis of the deposited data

How the results depend on the processing

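No paired analysis was possible because each condition has 1 library, and for the same reason no library could be left out. In the comparisons of si-HDAC6 and si-LINC00461 with si-NC, all 64 and 64 values of member ratios under the alternatives stayed within the counting interval of the reported one. At few counts these intervals are so wide that staying inside says little. In si-HDAC6, MT1G moved from 1.98 to 3.85 with a pseudocount of 0.1 and to 0.65 with 5. MT1F there moved from −2.67 to −1.11 with a pseudocount of 5. Between the lines 51 did and 5 did not. Scaling by total counts gave MT1E 0.08, MT1X −0.38, MT2A 0.30 and MTF1 0.47, and upper-quartile factors gave MT2A −0.01. With no CPM minimum, 1 member was at least 2-fold higher and 1 lower in si-HDAC6, and these were MT1G and MT1F with 1 count each in that library. The shares of all genes then rose to 11.1% higher and 13.8% lower in si-HDAC6, 16.4% and 18.3% in si-LINC00461, and 20.4% and 24.8% between the lines, because genes with few counts enter. Pseudocounts moved genes with few counts the most, and MT1G in si-LINC00461 was at 4.09 with a pseudocount of 5. The order of the members by level per length was unchanged with the longest transcript in all 4 libraries. That length can hold introns too, as in MT1X with 1727 of 1773 bases, so the check cannot show how annotated introns affect the order.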

Other observations

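Copper handling genes move and deliver the other metal that metallothioneins bind. Of 9 listed, 8 were compared in si-HDAC6 with 0 past 2-fold (median 0.03, from ATOX1 at −0.10 to COX17 at 0.25). In si-LINC00461 all 9 were compared with 0 past it (median 0.24, from COX17 at −0.73 to SLC31A1, the copper importer, at 0.68). Between the lines 1 of 9 was at least 2-fold lower in R-U87MG and 0 higher, beside 15.0% and 11.2% of all genes, with a median of −0.40. That gene was ATP7B, a copper-exporting ATPase, with 6 counts against 83 (−3.68, 95% interval −5.27 to −2.60). At 0.361 CPM in R-U87MG si-NC and 4.14 in U87MG si-NC, it passed the CPM minimum only through the library where it is high. With total counts ATOX1, a copper chaperone, was at 1.24, against 0.98 with TMM.

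Glucocorticoid response genes were read because glucocorticoids also induce metallothioneins. Of 8 listed, 7 were compared. The part of glucocorticoids in the metallothionein levels was not tested. In si-LINC00461 2 of the 7 were above 0, with SGK1 the highest at 0.66, and 5 below, with a median of −0.23. At least 2-fold lower were 2, and 0 were higher. The lower ones were FKBP5, a chaperone of the receptor, with 19 counts against 116 (−2.39, −3.21 to −1.72), and TSC22D3 with 120 against 347 (−1.34, −1.66 to −1.04). In si-HDAC6 0 passed 2-fold (median 0.15, from KLF9 at −0.17 to TSC22D3 at 0.42). Between the lines FKBP5 was higher in R-U87MG (1.27), and KLF9 (−2.95), DUSP1 (−1.03) and NR3C1, the receptor itself (2594 counts against 5202), were at least 2-fold lower, with a median of −0.80. With total counts DUSP1 was at −0.77 and NR3C1 at −0.74.

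Metal and oxidative stress genes were the list with the highest median between the lines among the lists used here. Of 8 listed, 6 were compared, and HSPA1A and HSPA1B were listed at 0. In R-U87MG 4 of 6 were at least 2-fold higher and 0 lower, with a median of 2.21, and GCLM was the fifth with total counts (1.01, against 0.75 with TMM). SRXN1, which repairs peroxiredoxins, had 7457 counts against 1019 (2.87), SLC7A11, the cystine importer, 7565 against 1117 (2.76), TXNRD1, thioredoxin reductase, 18377 against 3532 (2.38) and HMOX1, heme oxygenase, 4715 against 1157 (2.03). MT1F and MT1M were lower in the same library, and a link to these stress genes was not tested. In si-LINC00461 SLC7A11 was lower (127 against 1117, −2.94, −3.23 to −2.68) and none of the 6 passed 2-fold upwards, with HMOX1 the highest at 0.46 and a median of 0.13. In si-HDAC6 0 passed it (median 0.13, from DNAJB1 at −0.15 to HMOX1 at 0.20).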
